A study of Homo sapiens with 54 samples.

Results

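The levels of 10 genes of iron storage, iron uptake, iron export and ferroptosis were followed across RNA-seq libraries of MDA-MB-231, a long-established human line of mesenchymal, triple-negative breast cancer. The genes were FTH1, FTL, NCOA4, TFRC, SLC11A2, SLC40A1, IREB2, ACO1, GPX4 and ACSL4, picked by symbol, and all 10 were present among the 27978 genes counted. The study asked how Compound Kushen Injection (CKI), an injectable extract of medicinal plants, changes these cells, and which of its components are needed. RNA was sequenced from 54 libraries in 18 groups of 3 biological replicates, and the groups fell into 3 sets, each with its own untreated cells. The first set was sampled after 24 h in batch 1, the second after 48 h in batch 1, and the third after 48 h in batch 2. CKI was given at 2 mg/ml and every mixture at the dose that matches it, and no vehicle is stated for the untreated cells.

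In batch 1 the mixtures were N-OmtOspc, which is CKI without Omt and Ospc, N-MacOmtOspc, which is CKI without Mac, Omt and Ospc, OO, which holds Omt and Ospc alone, and MOO, which holds Mac, Omt and Ospc alone. In batch 2 a single component was left out of CKI at a time, giving N-Mac, N-Nme, N-Omt and N-Tri. Omt, Ospc and Mac fit oxymatrine, oxysophocarpine and macrozamin among the CKI compounds that the study lists, and the other abbreviations are used as given. A single cell line was used throughout, so the values describe that line alone.

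Ferritin is a hollow shell of heavy (FTH1) and light (FTL) subunits in which cells store iron. When iron is scarce, the iron regulatory proteins encoded by ACO1 and IREB2 bind short hairpins called iron-responsive elements, which blocks translation of ferritin mRNA and protects the mRNA of the transferrin receptor, TFRC, from decay. Ferroptosis is a form of cell death driven by iron-dependent peroxidation of membrane lipids, which GPX4 counters and ACSL4 promotes.

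These hairpins are what several of the members share in sequence, so they are printed here. Each was found in the untranslated regions (UTRs) of protein-coding transcripts of the GENCODE v29 basic annotation on build GRCh38, as a C, 5 bases, the loop CAGTGN, and 5 bases that pair with the first 5 (G-T pairs allowed), on the sense strand only. Capitals mark the bulged C and the loop, and sequences read 5′ to 3′.
FTH1 5′ UTR, chr11:61967575-61967601, minus strand: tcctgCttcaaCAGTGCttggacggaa
FTL 5′ UTR, chr19:48965336-48965362, plus strand: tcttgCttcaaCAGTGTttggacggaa
SLC40A1 5′ UTR, chr2:189580662-189580688, minus strand: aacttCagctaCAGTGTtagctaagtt
TFRC 3′ UTR, chr3:196050980-196051006, minus strand: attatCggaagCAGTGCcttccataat
TFRC 3′ UTR, chr3:196050576-196050602, minus strand: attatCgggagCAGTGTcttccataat
TFRC 3′ UTR, chr3:196050511-196050537, minus strand: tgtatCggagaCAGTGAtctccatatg
TFRC 3′ UTR, chr3:196050464-196050490, minus strand: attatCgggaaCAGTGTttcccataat

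The element stood in the 5′ UTR of 3 members (FTH1, FTL and SLC40A1) and in the 3′ UTR of 1 member (TFRC, with 4 copies), out of 10 members scanned. Over all 19659 protein-coding genes scanned it was found in the 5′ UTR of 31 (0.158%) and in the 3′ UTR of 128 (0.651%). A match describes the letters only, and no match says only that these letters are not in the annotated UTRs. SLC11A2 is known to have transcripts with and without such a hairpin, and its counts join all of its transcripts. The reads themselves had been aligned to hg19, a different build, so no coordinate above comes from the count table.

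Libraries held between 17673537 and 26138924 counted reads. All 10 members had enough counts to be tested in each set; the lowest count of SLC40A1 was 24 and that of any other member was 252. Markers of the line were present, with VIM at 488 CPM or more (CPM, the count scaled to a library of fixed size after TMM adjustment), CD44 at 328 or more and EGFR at 66.8 or more in every library, while the hormone receptor genes ESR1 and PGR had at most 8 and 2 counts. ERBB2, listed beside them as a gene that should be low in this line, was read in every library, at 32.2 to 113 CPM. CDH1, listed likewise, had 1 to 162 counts, at 0.0489 to 7.19 CPM. Of cells grown elsewhere in the study, the HEK-293 markers PAX2, NEFM and NEFL had at most 10, 1 and 2 counts. Of fibroblast genes DCN had at most 17 counts and COL3A1 at most 90. The other fibroblast genes listed were read in every library: COL1A1 at 8.87 to 65.2 CPM, COL1A2 at 0.663 to 44.6, PDGFRB at 2.21 to 16.4 and LUM at 0.722 to 6.73. In 3 libraries of the 24 h set, CKI replicate 1, OO replicate 2 and N-MacOmtOspc replicate 2, the levels leaned toward batch 2. These are the batch 1 libraries whose count columns carry no replicate number; they were matched to samples through the sample descriptions, for N-MacOmtOspc apart from a suffix in the column name. Their slopes were 0.592 to 0.680 over the 537 of 14667 genes that differed by over 2-fold between untreated cells of the batches at 48 h, against -0.426 to 0.110 in the other 33 libraries of batch 1. Calls at 24 h that change without these 3 libraries are given with and without them.

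A gene was called differentially expressed (DE) at an adjusted p-value under 0.05 in the quasi-likelihood test of edgeR, adjusted by the Benjamini-Hochberg method over all genes tested in that set. Log2 fold changes are given ± SE and replicate means ± SD, with n = 3 libraries in every group. Levels of different genes are not compared with each other, since CPM does not correct for transcript length. Batch 2 is a separate set, and levels were not tested between sets.

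**Figure D1:**
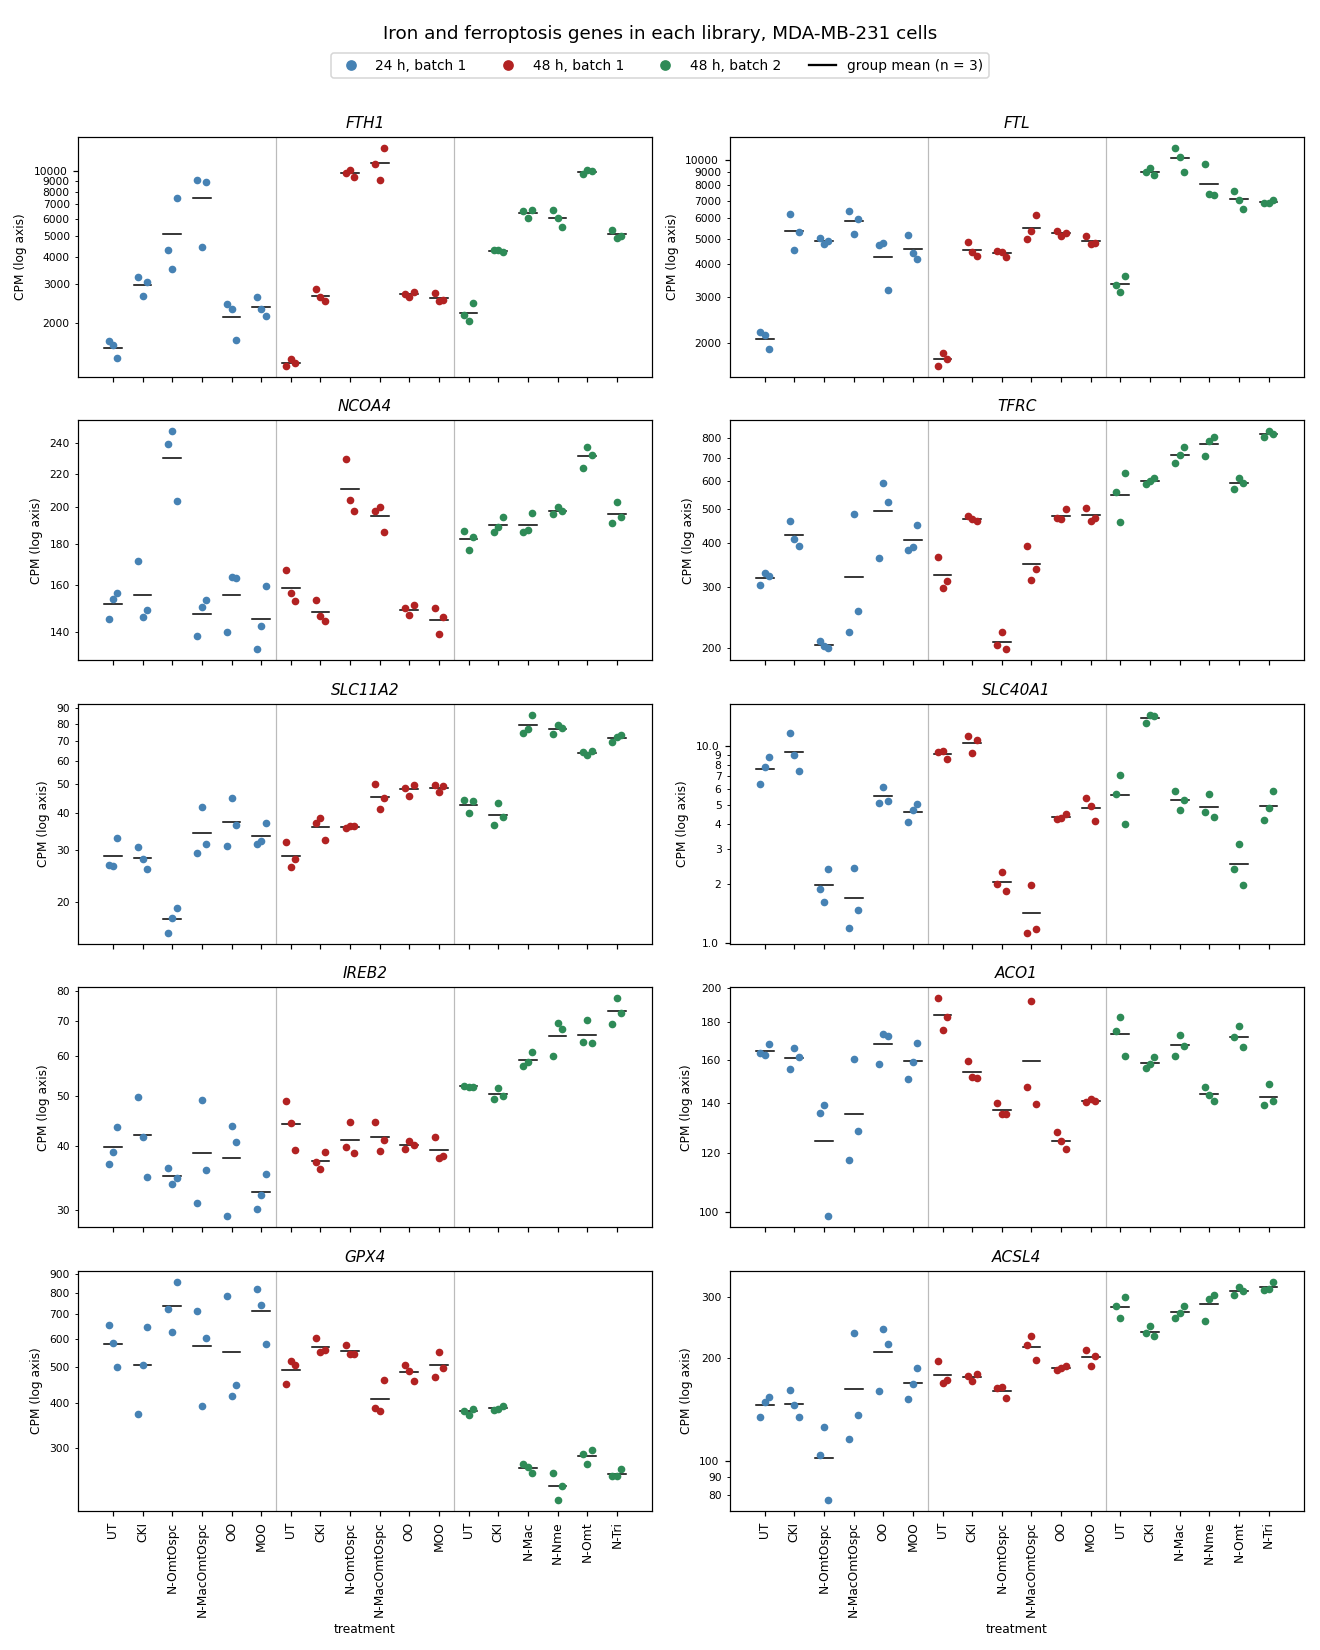
Level of each of the 10 genes in all 54 libraries, in CPM on a log axis, with 1 panel per gene, points for libraries, a bar for each group mean, and the 3 sets side by side. FTH1 and FTL lie above untreated cells in every treated library of each set, while SLC40A1 falls to between 1.13 and 2.40 CPM in N-OmtOspc and N-MacOmtOspc.

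FTL, the ferritin light chain, was higher than in untreated cells after every treatment in every set, by 1.02 to 1.66 on the log2 scale with a median of 1.37 over the 15 comparisons, and all 15 were DE. In the 48 h set of batch 1 the FTL level was 1634, 1826 and 1740.2 CPM in untreated cells, 4869, 4453 and 4304 CPM with CKI, and 5002, 5347 and 6190.2 CPM with N-MacOmtOspc. No treated library came near the untreated ones. With CKI the log2 fold change came to 1.37 ± 0.17 (adjusted p = 1.87e-05) after 24 h, 1.39 ± 0.08 (adjusted p = 4.13e-12) after 48 h in batch 1 and 1.43 ± 0.09 (adjusted p = 1.55e-15) after 48 h in batch 2, which are folds of 2.59, 2.62 and 2.70. Neither difference between these effects passed the test, 48 h minus 24 h (0.04 ± 0.15, adjusted p = 0.925) or batch 2 minus batch 1 (0.06 ± 0.08, adjusted p = 0.703). Because these are bulk libraries, a change in the make-up of the cells and a change in RNA per cell cannot be told apart.

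In batch 2 FTL stood at 3327, 3123 and 3594 CPM in untreated cells, at 8988, 9349 and 8739 CPM with CKI, and at 11166, 10293 and 8990 CPM with N-Mac. The N-Mac libraries spanned the CKI range at their low end, and N-Mac did not pass the test against CKI (0.18 ± 0.08, adjusted p = 0.0601). N-Omt, at 7649, 7057 and 6514 CPM, and N-Tri, at 6855, 6873 and 7036 CPM, lay below every CKI library and above every untreated one. Against CKI these differences were -0.36 ± 0.08 (adjusted p = 0.000299) and -0.42 ± 0.08 (adjusted p = 5.09e-05).

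FTH1, the ferritin heavy chain, which oxidises iron on its way into the shell, differed far more between mixtures. In batch 1 at 48 h it stood at 1269, 1361 and 1302 CPM in untreated cells, 2844, 2632 and 2505 CPM with CKI, 2713, 2619 and 2781 CPM with OO, and 2732, 2529 and 2538 CPM with MOO. With N-OmtOspc it was 9773, 10052 and 9301 CPM, and with N-MacOmtOspc 10766, 9006 and 12742 CPM. The libraries thus fell into 3 levels that did not overlap: untreated cells, then CKI, OO and MOO together, then both mixtures that lack Omt and Ospc. Against untreated cells the log2 fold change was 1.02 ± 0.09 with CKI (adjusted p = 5.69e-09), 2.89 ± 0.10 with N-OmtOspc (adjusted p = 5.6e-17) and 3.04 ± 0.10 with N-MacOmtOspc (adjusted p = 2.39e-17), folds of 2.03, 7.41 and 8.24. Neighbours within a level did not pass the test against each other. OO minus CKI was 0.01 with a 95% confidence interval of -0.18 to 0.20, MOO minus CKI was -0.05 (-0.24 to 0.14), and N-MacOmtOspc minus N-OmtOspc was 0.15 (-0.04 to 0.34).

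In batch 2 FTH1 rose from 2175, 2034 and 2452 CPM in untreated cells to 4316, 4325 and 4214 CPM with CKI and to 9646, 10022 and 10003 CPM with N-Omt. Every N-Omt library was above every other library of the set. The fold was 1.94 with CKI (0.95 ± 0.07, adjusted p = 4.95e-14) and 4.44 with N-Omt (2.15 ± 0.07, adjusted p = 2.81e-23). Between them lay N-Tri at 5340, 4925 and 5021 CPM, then N-Nme at 6568, 6039 and 5511 CPM and N-Mac at 6506, 6069 and 6600.3 CPM, the last pair with overlapping libraries. All 4 mixtures were higher than CKI, by 1.20 ± 0.07 for N-Omt (adjusted p = 7.08e-17), 0.59 ± 0.07 for N-Mac (adjusted p = 1.95e-09), 0.47 ± 0.07 for N-Nme (adjusted p = 1.26e-07) and 0.21 ± 0.07 for N-Tri (adjusted p = 0.00423), the last lost in 1 model of all 54 libraries (0.25, adjusted p = 0.226).

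At 24 h FTH1 was more variable. It was 1654, 1588 and 1372 CPM in untreated cells, 3251, 2655 and 3072 CPM with CKI, 4333, 3519 and 7455 CPM with N-OmtOspc, and 9060, 4447 and 8827 CPM with N-MacOmtOspc. Replicate 2 of N-MacOmtOspc, 1 of the 3 libraries that lean toward batch 2, was the low one. CKI raised FTH1 by 0.96 ± 0.27 (adjusted p = 0.0121), a call that was lost without untreated replicate 3 (0.89, adjusted p = 0.0501). N-OmtOspc raised it by 1.75 ± 0.27 (adjusted p = 3.13e-05) and N-MacOmtOspc by 2.28 ± 0.28 (adjusted p = 8.47e-06), or 2.54 without the 3 libraries. OO (0.47, 95% confidence interval -0.09 to 1.03, adjusted p = 0.237) and MOO (0.62, 0.06 to 1.18, adjusted p = 0.163) did not pass the test, although their libraries too lay above the untreated ones. Both were DE in 1 model of all 54 libraries (OO 0.47, adjusted p = 0.0307, and MOO 0.62, adjusted p = 0.0067). MOO was also DE with only the compared groups in the model (0.62, adjusted p = 0.000449). Neither was DE without the 3 libraries (OO 0.41, adjusted p = 0.25, and MOO 0.62, adjusted p = 0.0597). Above CKI, FTH1 was DE with N-MacOmtOspc (1.32 ± 0.27, adjusted p = 0.00135) and with N-OmtOspc (0.79 ± 0.27, adjusted p = 0.0175). The N-OmtOspc call was lost without its replicate 3 (0.42, adjusted p = 0.147), without CKI replicate 2 (0.70, adjusted p = 0.0656), and with scaling by library size alone (0.45, adjusted p = 0.15).

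The balance of the ferritin chains was read as FTH1 reads divided by FTL reads within each library, a ratio whose changes between libraries do not depend on scaling but whose size depends on transcript length. The 48 h set of batch 1 gave 0.757 ± 0.0176 (SD, n = 3) in untreated cells, 0.586 ± 0.00483 with CKI, 0.515 ± 0.0109 with OO and 0.531 ± 0.00344 with MOO, but 2.21 ± 0.0444 with N-OmtOspc and 1.97 ± 0.248 with N-MacOmtOspc. In batch 2 it was 0.663 ± 0.0171 in untreated cells, 0.475 ± 0.0107 with CKI and 1.41 ± 0.138 with N-Omt, while N-Mac (0.635 ± 0.0856), N-Nme (0.748 ± 0.0684) and N-Tri (0.736 ± 0.0369) lay between CKI and N-Omt. At 24 h it fell from 0.740 ± 0.0123 to 0.562 ± 0.0362 with CKI and stood at 1.04 ± 0.423 with N-OmtOspc and 1.25 ± 0.348 with N-MacOmtOspc. In each set the mixtures that lack Omt had the highest mean ratio, although the lowest N-OmtOspc library at 24 h, 0.739, was level with untreated cells. The ratios are a description and were not tested. Both chains have many processed copies in the genome, and the counting could split reads between them; the copies listed, FTH1P3, FTH1P18 and FTLP10, held at most 20, 0 and 1 counts in any library.

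**Figure D2:**
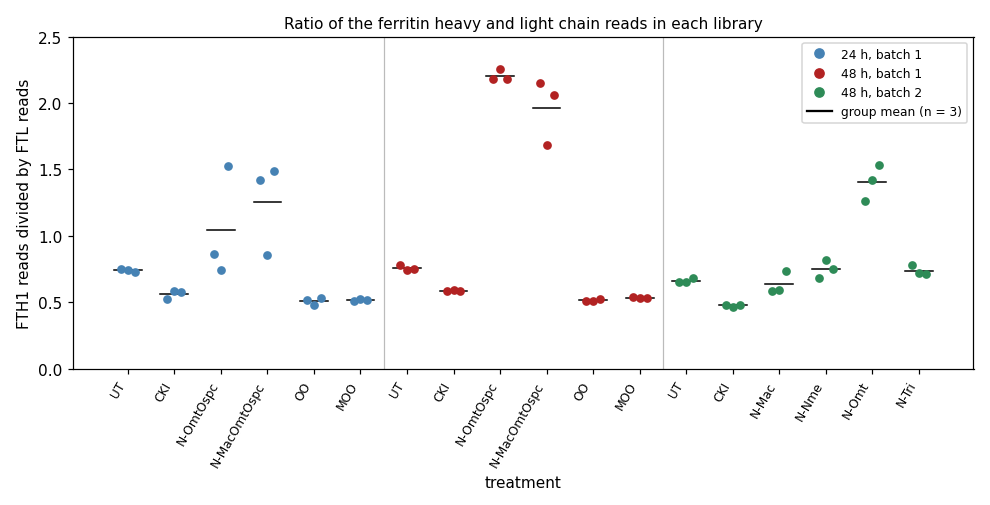
FTH1 reads divided by FTL reads in each of the 54 libraries (points; bars are group means), by group in the 3 sets. N-OmtOspc and N-MacOmtOspc at 48 h lie at 1.68 or more, and N-Omt averages 1.41, while CKI averages 0.475 to 0.586.

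NCOA4, the receptor that carries ferritin to lysosomes for breakdown and iron release, moved less than the ferritin chains. In N-OmtOspc it was 239, 248 and 204 CPM at 24 h against 145, 154 and 156 CPM in untreated cells, and 229, 204 and 198 CPM at 48 h against 167, 156 and 153 CPM. The groups did not overlap at either time, and NCOA4 rose by 0.62 ± 0.11 (adjusted p = 0.000119) on the log2 scale after 24 h and by 0.40 ± 0.06 (adjusted p = 6.48e-06) after 48 h. The size of the 24 h rise depended on the processing. Over 15 alternative fits it ran from 0.31 to 0.71, DE in each. N-MacOmtOspc at 48 h (0.29, adjusted p = 0.000406) and N-Omt (0.34 ± 0.04, adjusted p = 3.09e-08) were also higher, the last at 224, 237 and 232 CPM against 187, 177 and 184 CPM. N-Nme was the fifth DE comparison (0.10, adjusted p = 0.0481), a call lost when single libraries were left out. With CKI the values were 0.04 at 24 h, -0.10 at 48 h in batch 1 and 0.06 in batch 2, none of them DE. N-OmtOspc at 24 h lay above CKI (0.58 ± 0.11, adjusted p = 0.000256). That call was lost with scaling by library size alone (0.22, adjusted p = 0.141). The same scaling shifted the median gene of N-OmtOspc against untreated cells at 24 h by -0.31.

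TFRC, the receptor through which cells take up transferrin-bound iron, moved in both directions. In batch 1 at 48 h its level was 365, 298 and 311 CPM in untreated cells, 478, 469 and 461 CPM with CKI, and 204, 222 and 199 CPM with N-OmtOspc. CKI lay above and N-OmtOspc below every untreated library. The log2 fold changes were 0.53 ± 0.08 for CKI (adjusted p = 1.14e-05), -0.64 ± 0.08 for N-OmtOspc (adjusted p = 3.47e-07), 0.55 ± 0.08 for OO (adjusted p = 6.01e-06) and 0.55 ± 0.08 for MOO (adjusted p = 7.8e-06). N-MacOmtOspc, at 392, 313 and 337 CPM, overlapped untreated cells (0.09, adjusted p = 0.323) and was higher than N-OmtOspc by 0.73 ± 0.08 (adjusted p = 2.68e-07).

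At 24 h TFRC was 304, 327 and 321 CPM in untreated cells and 210, 203 and 200 CPM with N-OmtOspc, a change of -0.62 ± 0.22 (adjusted p = 0.0238). That call was lost without N-OmtOspc replicate 2 or 3 or untreated replicate 2 or 3 (adjusted p = 0.0502 to 0.0595). N-MacOmtOspc stood at 222, 484 and 256 CPM, with replicate 2, the library that leans toward batch 2, far above the others. With all libraries its change was 0.02 (adjusted p = 0.959), and without the 3 libraries it reversed to -0.41 (adjusted p = 0.0188). The difference between N-MacOmtOspc and N-OmtOspc at 24 h (0.63, adjusted p = 0.0274) was likewise lost without N-MacOmtOspc replicate 2 (0.21, adjusted p = 0.295). OO, at 361, 592 and 523 CPM, became DE without the 3 libraries (0.47), and so did MOO (0.36). CKI, at 463, 410 and 391 CPM, lay above every untreated library but was not DE (0.41 ± 0.22, adjusted p = 0.175). The CKI change was DE in 1 model of all 54 libraries (0.41, adjusted p = 0.025) and with only the compared groups (0.41, adjusted p = 0.0109). It was not DE without the 3 libraries (0.33, adjusted p = 0.0686).

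In batch 2 untreated cells had TFRC at 558, 459 and 632 CPM, a wider spread than in batch 1, and CKI at 590.4, 602 and 615 CPM lay within it (0.14 ± 0.07, adjusted p = 0.0748). Without untreated replicate 3 the CKI change was 0.24 (adjusted p = 0.000955). N-Tri, at 804, 834 and 821 CPM, N-Nme, at 711, 784 and 801 CPM, and N-Mac, at 678, 714 and 751 CPM, lay above all untreated libraries, with changes of 0.54 ± 0.07 (adjusted p = 1.44e-08), 0.46 ± 0.07 (adjusted p = 4.1e-07) and 0.39 ± 0.07 (adjusted p = 5.46e-06). N-Omt, at 572, 615 and 593 CPM, overlapped untreated cells.

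SLC11A2 encodes DMT1, the transporter that moves ferrous iron across the membranes of the endosome and the gut. In batch 2 it was 44.3, 39.9 and 43.7 CPM in untreated cells, 36.5, 43.1 and 38.7 CPM with CKI, and 74.5, 76.6 and 85.7 CPM with N-Mac. CKI overlapped untreated cells (-0.11, adjusted p = 0.128), while all 4 mixtures lay above both. N-Mac rose by 0.90 ± 0.06 (adjusted p = 8.17e-15), a fold of 1.87, N-Nme by 0.83 ± 0.06 (adjusted p = 7.69e-14), N-Tri by 0.71 ± 0.06 (adjusted p = 2.63e-12) and N-Omt by 0.57 ± 0.06 (adjusted p = 3.53e-10). In the 48 h set of batch 1 all 5 treatments raised it, from 31.7, 26.2 and 27.8 CPM in untreated cells to 49.5, 47.0 and 49.1 CPM with MOO (0.75 ± 0.08, adjusted p = 9.47e-08), with the smallest change for N-OmtOspc (0.32 ± 0.08, adjusted p = 0.00132). At 24 h the sole DE comparison was in the opposite direction. N-OmtOspc stood at 15.7, 17.6 and 19.0 CPM against 26.6, 26.4 and 32.8 CPM in untreated cells, with no overlap, a change of -0.69 ± 0.16 (adjusted p = 0.00138). The change of direction between 24 h and 48 h in N-OmtOspc was not tested.

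SLC40A1 encodes ferroportin, the iron exporter of vertebrate cells, and was the member read at the lowest counts, with its lowest group mean, 1.42 CPM, with N-MacOmtOspc at 48 h. Untreated cells of batch 1 at 48 h had it at 9.25, 9.36 and 8.51 CPM and CKI at 11.2, 9.18 and 10.7 CPM, which overlapped. OO at 4.24, 4.30 and 4.52 CPM and MOO at 5.43, 4.96 and 4.13 CPM were lower, and N-OmtOspc at 1.99, 2.28 and 1.83 CPM and N-MacOmtOspc at 1.13, 1.97 and 1.18 CPM were lower still. OO and MOO, which lay level with CKI for FTH1, thus lay below it for SLC40A1. The log2 fold changes were -2.14 ± 0.16 for N-OmtOspc (adjusted p = 3.06e-11), -2.69 ± 0.17 for N-MacOmtOspc (adjusted p = 3.04e-12), -1.06 ± 0.14 for OO (adjusted p = 9.53e-07) and -0.91 ± 0.14 for MOO (adjusted p = 8.83e-06). CKI did not pass the test (0.20, adjusted p = 0.202). N-MacOmtOspc was lower than N-OmtOspc by -0.55 ± 0.21 (adjusted p = 0.032), with overlapping libraries and a call that did not hold when some single libraries were left out.

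At 24 h SLC40A1 was 6.40, 7.76 and 8.81 CPM in untreated cells, 1.87, 1.62 and 2.38 CPM with N-OmtOspc and 1.19, 2.40 and 1.47 CPM with N-MacOmtOspc. Both mixtures lay far below the untreated libraries (-1.94 ± 0.25, adjusted p = 3.88e-06, and -2.18 ± 0.24, adjusted p = 3.86e-06). OO at 5.13, 6.19 and 5.25 CPM was not DE (-0.47, adjusted p = 0.16) but became so without the 3 libraries (-0.57). MOO at 4.12, 4.69 and 5.04 CPM was DE (-0.73 ± 0.22, adjusted p = 0.0467), but the call was lost without any single library of the 6 compared (-0.62 to -0.84).

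In batch 2 SLC40A1 behaved differently with CKI. It was 5.68, 7.13 and 3.99 CPM in untreated cells and 13.0, 14.3 and 14.1 CPM with CKI, so that every CKI library lay above every untreated one. The change was 1.31 ± 0.14 (adjusted p = 1.41e-09), a fold of 2.48. N-Omt at 2.38, 3.17 and 1.97 CPM lay below untreated cells (-1.15 ± 0.18, adjusted p = 1.56e-06), while N-Mac (-0.06), N-Nme (-0.23) and N-Tri (-0.20) were not DE. Untreated replicate 3 was the low library, and without it N-Nme (-0.43, adjusted p = 0.0131) and N-Tri (-0.40, adjusted p = 0.0213) were DE as well.

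IREB2 and ACO1, the genes of the iron regulatory proteins, changed less than the ferritin chains, and where DE with the mixtures of batch 2, IREB2 was higher and ACO1 lower than in untreated cells. IREB2 was 52.4, 52.2 and 52.2 CPM in untreated cells of batch 2, 49.4, 52.0 and 50.1 CPM with CKI and 69.3, 77.6 and 72.8 CPM with N-Tri. The N-Tri libraries lay above all those of untreated cells, CKI and N-Mac, and the change was 0.46 ± 0.06 (adjusted p = 9.97e-09), a fold of 1.37. The other 3 mixtures of batch 2 were higher too, by 0.18 to 0.33, although the smallest, N-Mac, was lost in 1 model of all 54 libraries (0.17, adjusted p = 0.212), and CKI was not DE (-0.05). In batch 1 the sole DE comparison of IREB2 was CKI at 48 h (-0.24, adjusted p = 0.0149), from 49.0, 44.4 and 39.2 CPM to 37.3, 36.1 and 39.0 CPM, and it was lost without CKI replicate 2 (-0.22, adjusted p = 0.0549) or untreated replicate 1 (-0.17, adjusted p = 0.0972). ACO1, whose protein is the cytosolic aconitase when it holds an iron-sulfur cluster, was lower and DE in 9 of the 15 comparisons and higher in 0. With OO at 48 h it went from 194, 176 and 183 CPM in untreated cells to 128, 125 and 121 CPM, with no overlap (-0.57 ± 0.08, adjusted p = 5e-06), a fold of 0.672. In batch 2 it fell from 175, 183 and 162 CPM to 139, 149 and 141 CPM with N-Tri (-0.31, adjusted p = 1.16e-06) and to 147, 144 and 141 CPM with N-Nme (-0.29, adjusted p = 4.03e-06). Without the 3 libraries N-MacOmtOspc at 24 h (-0.28 with all libraries) was lower and DE as well (-0.42, adjusted p = 0.013). The smallest of these changes, CKI in batch 2 (-0.13, adjusted p = 0.0234) and N-MacOmtOspc at 48 h (-0.21, adjusted p = 0.031), were lost under several single omissions.

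GPX4, the selenoenzyme that reduces lipid peroxides, was lower with all 4 mixtures of batch 2 and not with CKI. It was 380.2, 370.3 and 385 CPM in untreated cells, 382, 384 and 393 CPM with CKI, 271, 267 and 257 CPM with N-Mac, 256, 216 and 237 CPM with N-Nme, 288, 271 and 296 CPM with N-Omt, and 251, 252 and 263 CPM with N-Tri. No library of the mixtures reached the lowest untreated one. The changes were -0.70 ± 0.05 for N-Nme (adjusted p = 2.44e-13), -0.60 ± 0.05 for N-Tri (adjusted p = 7.4e-12), -0.50 ± 0.05 for N-Mac (adjusted p = 4.06e-10) and -0.41 ± 0.05 for N-Omt (adjusted p = 1.84e-08). In batch 1 at 48 h GPX4 was lower with N-MacOmtOspc (-0.27 ± 0.08, adjusted p = 0.0052), at 388, 379 and 461 CPM against 450, 520 and 508 CPM with overlapping libraries, and slightly higher with CKI (0.21 ± 0.08, adjusted p = 0.0317), a call lost under several single omissions. In 1 model of all 54 libraries neither of these calls held (-0.27, adjusted p = 0.161, and 0.21, adjusted p = 0.319). N-OmtOspc at 48 h, at 576, 544 and 545 CPM, lay above every untreated library but was not DE (0.17 ± 0.08, adjusted p = 0.0562). Some other fits called it higher, such as DESeq2 (0.19, adjusted p = 0.0333) and scaling by library size alone (0.25, adjusted p = 0.0083). At 24 h no comparison of GPX4 with untreated cells was DE. Its spread there was wide: the CKI libraries ran from 373 CPM in replicate 1, which leans toward batch 2, to 645 CPM.

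ACSL4 loads membranes with the polyunsaturated lipids that peroxidise. It changed by -0.49 to 0.51 on the log2 scale over the 15 comparisons. The DE comparisons were N-MacOmtOspc at 48 h (0.27 ± 0.07, adjusted p = 0.00202), from 195, 169 and 172 CPM to 218, 231 and 198 CPM, N-OmtOspc at 48 h (-0.16, adjusted p = 0.0482), and in batch 2 CKI (-0.23 ± 0.05, adjusted p = 0.000441), N-Omt (0.15, adjusted p = 0.0113) and N-Tri (0.16, adjusted p = 0.00795). In batch 2 untreated cells had 282, 260 and 300 CPM, CKI 235, 248 and 232 CPM and N-Tri 316, 317 and 332 CPM, so CKI lay below and N-Tri above the untreated libraries. The calls for N-OmtOspc, N-Omt and N-Tri were each lost without single libraries, for N-Omt and N-Tri without untreated replicate 2 (0.10, adjusted p = 0.105, and 0.11, adjusted p = 0.0733). In 1 model of all 54 libraries no ACSL4 call at 48 h against untreated cells held, the values for N-MacOmtOspc and CKI in batch 2 being 0.27 (adjusted p = 0.0987) and -0.24 (adjusted p = 0.18). At 24 h no ACSL4 comparison with untreated cells was DE. The N-OmtOspc change (-0.49) became DE without the 3 libraries and in 1 model of all 54 libraries (-0.51, adjusted p = 0.00209). OO stood at 160, 243 and 220 CPM against 135, 149 and 154 CPM in untreated cells (0.51, adjusted p = 0.131). The OO change was DE in the model of all 54 libraries (0.51, adjusted p = 0.00548) but not without the 3 libraries (0.38, adjusted p = 0.144).

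The number of members DE is given here beside the share of all genes tested that were DE in the same comparison. At 24 h, 2 of 10 members were DE with CKI (both higher) where 30.0% of all genes tested were. With N-OmtOspc 7 were DE (3 higher, 4 lower; 62.1% of all genes), with N-MacOmtOspc 3 (2 higher, 1 lower; 45.0%), with OO 1 (higher; 16.7%) and with MOO 2 (1 higher, 1 lower; 10.5%). Without the 3 libraries that lean toward batch 2 these numbers were 2 for CKI (32.7% of all genes), 8 for N-OmtOspc (68.5%), 5 for N-MacOmtOspc (54.2%), 3 for OO (22.3%) and 3 for MOO (20.2%). At 48 h in batch 1, 7 members were DE with CKI (5 higher, 2 lower; 54.0% of all genes), 8 with N-OmtOspc (4 and 4; 76.6%), 8 with N-MacOmtOspc (5 and 3; 71.1%), 6 with OO (4 and 2; 57.8%) and 6 with MOO (4 and 2; 51.2%). In batch 2, 5 were DE with CKI (3 higher, 2 lower; 66.4% of all genes), 6 with N-Mac (5 and 1; 72.4%), 8 with N-Nme (6 and 2; 71.3%), 8 with N-Omt (6 and 2; 78.2%) and 8 with N-Tri (6 and 2; 72.2%). These shares are so high that a count of members on its own says little about them, and nothing particular to them is read from it. Treatments of a set share their untreated libraries, so the comparisons are not independent of each other.

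**Figure D3:**
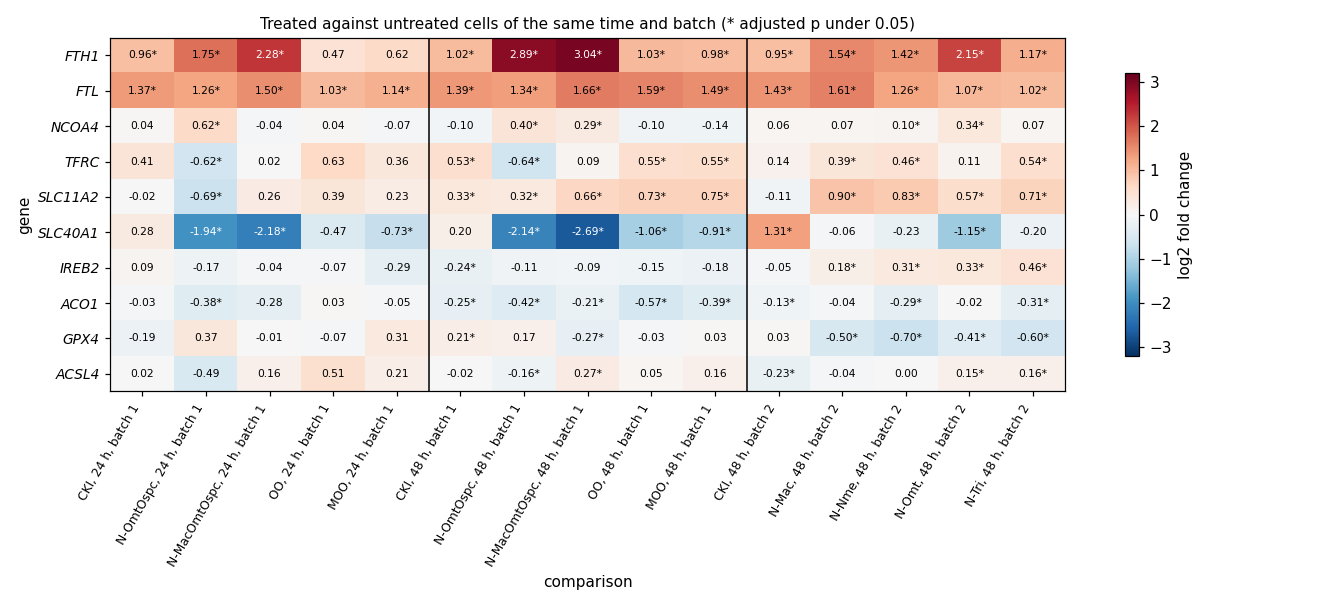
Heat map of log2 fold changes against untreated cells of the same set, with the 10 genes in rows and the 15 comparisons in columns, colour and a number for the log2 value and an asterisk where the gene was DE. FTL is higher with an asterisk in all 15 columns, FTH1 in 13, and SLC40A1 is lower with an asterisk in 8.

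CKI and untreated cells were present in both batches at 48 h. With the batch as a term, 6 members were DE (5 higher, 1 lower; 70.8% of all genes): FTL (1.43 ± 0.04, adjusted p = 2.85e-14), FTH1 (1.01 ± 0.04, adjusted p = 2.05e-12), SLC40A1 (0.75 ± 0.17, adjusted p = 0.000658), TFRC (0.35 ± 0.08, adjusted p = 0.00052), GPX4 (0.14 ± 0.04, adjusted p = 0.00874) and, lower, ACO1 (-0.17 ± 0.04, adjusted p = 0.00158). The GPX4 call was lost in 1 model of all 54 libraries (0.12, adjusted p = 0.396), and without the batch term both it (0.16, adjusted p = 0.4) and that of TFRC (0.32, adjusted p = 0.149) were lost. The CKI effect itself differed between batches for 3 members, where 13.8% of all genes did. It was larger in batch 2 by 1.13 ± 0.19 for SLC40A1 (adjusted p = 0.000399) and smaller for SLC11A2 (-0.42 ± 0.11, adjusted p = 0.0136) and TFRC (-0.39 ± 0.11, adjusted p = 0.0245). The TFRC call was lost without any 1 of 7 of the 12 libraries (adjusted p = 0.053 to 0.086), and the SLC11A2 call without CKI replicate 2 or untreated replicate 2 of batch 1 (adjusted p = 0.051 and 0.0518). Between 24 h and 48 h in batch 1 the CKI effect differed for 0 members by edgeR's test (1.56% of all genes), with 2 at an unadjusted p under 0.05 and 0 by DESeq2. Without the 3 libraries that lean toward batch 2 it again differed for 0 members, but for 9.45% of all genes. ACO1 (-0.24, adjusted p = 0.0609) and SLC11A2 (0.42, adjusted p = 0.0686) then came near the threshold.

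Each mixture was also compared with CKI itself. No group held CKI that had been separated and recombined whole. The loss of a component and the making of a mixture therefore cannot be told apart in these differences. SLC40A1 was lower than with CKI in 12 of 12 such comparisons, each DE, with log2 differences of -0.75 to -2.89, though at 24 h the call for OO (-0.75, adjusted p = 0.0438) was lost without 5 of its 6 libraries left out in turn. In batch 2 it was lower with N-Omt (-2.45 ± 0.16, adjusted p = 1.04e-14), and with N-Nme (-1.54 ± 0.15, adjusted p = 5.37e-11), N-Tri (-1.51 ± 0.15, adjusted p = 9.68e-11) and N-Mac (-1.37 ± 0.14, adjusted p = 5.57e-10). FTH1 was higher than with CKI in 8 of the 12, all but OO and MOO at either time. GPX4 was lower in 6, with differences of -0.45 to -0.73 in batch 2 and with N-MacOmtOspc (-0.48 ± 0.08, adjusted p = 1.82e-05) and OO (-0.24 ± 0.08, adjusted p = 0.0159) at 48 h in batch 1, the call for OO being lost in 1 model of all 54 libraries (-0.23, adjusted p = 0.281). SLC11A2 was higher in 7, by up to 1.01 ± 0.06 with N-Mac (adjusted p = 8.62e-16), and lower in 1, N-OmtOspc at 24 h (-0.67 ± 0.16, adjusted p = 0.00201). TFRC was higher in 3, all in batch 2, and lower in 3, all in batch 1, among them N-OmtOspc after 24 h by -1.03 ± 0.22 (adjusted p = 0.000896) and after 48 h by -1.17 ± 0.08 (adjusted p = 2.49e-11).

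The counts of members DE against CKI were again read beside those of all genes. At 24 h they were 6 with N-OmtOspc (2 higher, 4 lower; 58.7% of all genes), 2 with N-MacOmtOspc (1 and 1; 35.7%), 1 with OO (lower; 8.49%) and 1 with MOO (lower; 11.6%). Without the 3 libraries they were 7 (61.7%), 4 (43.7%), 1 (11.2%) and 1 (14.9%). The members gained were ACSL4 with N-OmtOspc (-0.43, adjusted p = 0.0451) and, with N-MacOmtOspc, TFRC (-0.74, adjusted p = 0.00103) and ACO1 (-0.41, adjusted p = 0.0287). At 48 h in batch 1 they were 4 with N-OmtOspc (2 and 2; 73.1%), 8 with N-MacOmtOspc (5 and 3; 67.2%), 5 with OO (2 and 3; 51.8%) and 3 with MOO (2 and 1; 47.6%). In batch 2 they were 7 with N-Mac (5 and 2; 69.4%), 8 with N-Nme (5 and 3; 71.5%), 9 with N-Omt (6 and 3; 76.3%) and 9 with N-Tri (5 and 4; 71.4%). The 4 members DE with N-OmtOspc at 48 h were FTH1 and NCOA4, both higher, and TFRC and SLC40A1, both lower.

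By their labels, 2 pairs of mixtures at each time differed by Mac alone. Mac was present in MOO against OO and absent in N-MacOmtOspc against N-OmtOspc. In these pairs too, a difference in Mac and the making of a mixture cannot be told apart. MOO and OO passed the test against each other in no member. At 24 h edgeR called 0 members and 0% of all genes, with 566 genes but 0 members at an unadjusted p under 0.05 and 0 members by DESeq2, and at 48 h it called 0 members and 1.98% of all genes, with 1 member (ACO1) at an unadjusted p under 0.05 and 0 by DESeq2. The differences at 48 h were -0.06 for FTH1 (95% confidence interval -0.25 to 0.13), -0.10 for FTL (-0.27 to 0.06), 0.00 for TFRC (-0.17 to 0.17), 0.15 for SLC40A1 (-0.16 to 0.46) and 0.18 for ACO1 (0.00 to 0.36). N-MacOmtOspc differed from N-OmtOspc in 7 members at 48 h (5 higher, 2 lower; 51.0% of all genes): TFRC (0.73), ACSL4 (0.42 ± 0.08, adjusted p = 3.64e-05), SLC11A2 (0.34 ± 0.08, adjusted p = 0.00154), FTL (0.32 ± 0.08, adjusted p = 0.00173) and ACO1 (0.21, adjusted p = 0.0391) were higher and GPX4 (-0.45 ± 0.08, adjusted p = 9.93e-05) and SLC40A1 (-0.55) lower. Whether the difference between mixtures with and without Mac itself differed between the pairs was not tested. The ACO1 difference fell to 0.06 without N-MacOmtOspc replicate 2, and with only the compared groups in the model FTL missed the threshold (0.33, adjusted p = 0.0722). At 24 h 4 members differed (3 higher, 1 lower; 47.6% of all genes), with SLC11A2 higher by 0.95 ± 0.16 (adjusted p = 0.000152) and NCOA4 lower (-0.66, adjusted p = 0.000131), and both of these held without the 3 libraries (0.78 and -0.67). TFRC and ACSL4, the other pair at 24 h, did not hold without them, and FTH1 then differed (0.80).

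**Figure D4:**
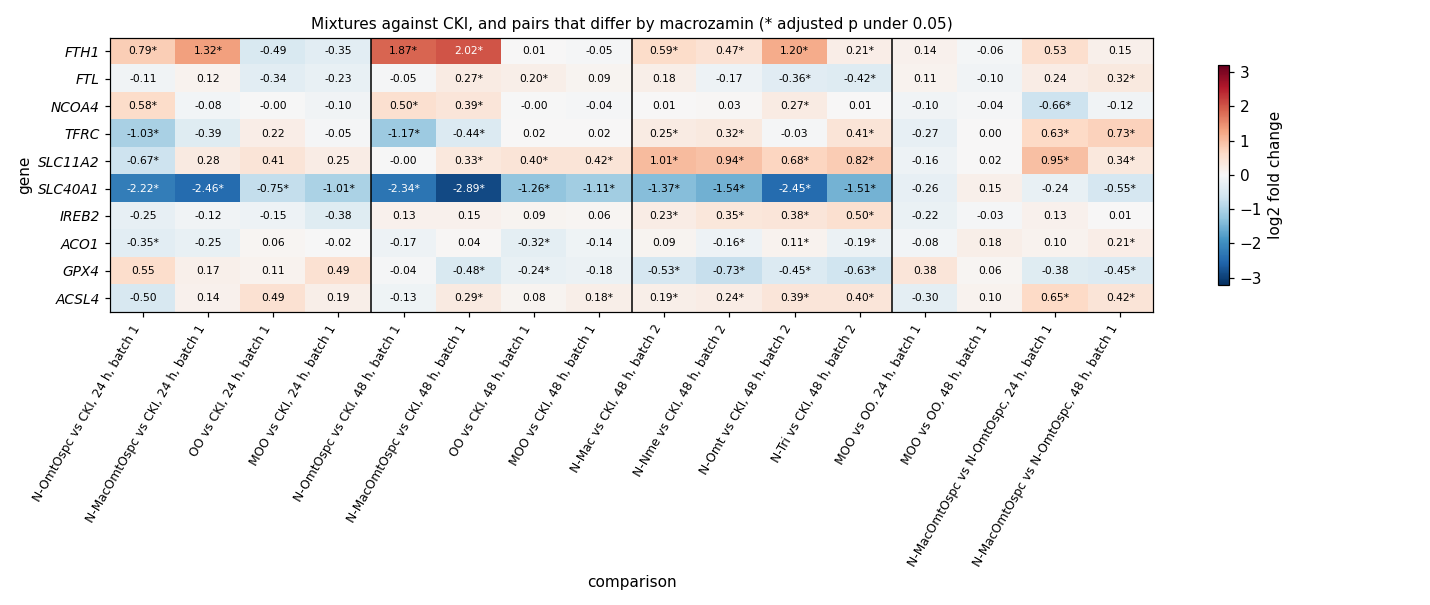
Heat map of log2 differences of each mixture from CKI of the same set, and of the mixtures that by label differ by Mac. The 10 genes are in rows, with colour and a number for the log2 value and an asterisk where the gene was DE. SLC40A1 is lower with an asterisk in all 12 columns against CKI, and no gene has an asterisk for MOO against OO.

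Other genes of iron handling and ferroptosis were taken as a list of 74 genes in the table, of which 66 were tested in all 3 sets. At 24 h 29 of 66 were DE with CKI (14 higher, 15 lower; 30.0% of all genes tested), 52 with N-OmtOspc (29 and 23; 62.1%), 42 with N-MacOmtOspc (20 and 22; 45.0%), 21 with OO (13 and 8; 16.7%) and 12 with MOO (10 and 2; 10.5%). At 48 h in batch 1, of 67 tested, 45 were DE with CKI (24 and 21; 54.0% of all genes), 62 with N-OmtOspc (28 and 34; 76.6%), 55 with N-MacOmtOspc (26 and 29; 71.1%), 48 with OO (21 and 27; 57.8%) and 44 with MOO (21 and 23; 51.2%). In batch 2 the numbers were 54 with CKI (28 and 26; 66.4% of all genes), 57 with N-Mac (26 and 31; 72.4%), 53 with N-Nme (22 and 31; 71.3%), 60 with N-Omt (27 and 33; 78.2%) and 54 with N-Tri (23 and 31; 72.2%). Listed genes moved both ways in each comparison, though mostly upward with MOO at 24 h, with a median log2 fold change between -0.20 and 0.05, where the median of all genes tested lay between -0.01 and 0.03.

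Genes of the list with the largest median rise or fall, among those DE in at least 8 of the 15 comparisons, were singled out. SLC7A11, the cystine importer that feeds glutathione synthesis and hence GPX4, was higher and DE in all 15, by 0.92 to 2.96 with a median of 2.26, for example from 33.0 ± 5.18 to 246 ± 19.7 CPM (SD, n = 3) with OO at 48 h. SLC48A1, a transporter that brings heme out of lysosomes, was also higher in all 15, by 0.81 to 1.98. SAT1, a polyamine acetyltransferase linked to ferroptosis, was higher in 12, with a median of 1.31, and ALOXE3, of the lipoxygenase family, was higher in 15 with a median of 4.03 but never averaged above 3.61 CPM. Among genes that fell, STEAP3, which reduces ferric iron in the endosome beside TFRC and SLC11A2, was lower in 13 with a median of -1.24. HFE, which binds TFRC, was lower in 11 with a median of -1.27, and TFR2, a further transferrin receptor, in 13 with a median of -1.34. TFR2 never averaged above 3.51 CPM, and it did not fall with N-OmtOspc at 48 h (0.13, adjusted p = 0.587).

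By role, the 7 genes listed under cystine and glutathione supply mostly rose. That role is a heading of the list, and its genes do not all act in supply. Beside SLC7A11, both subunits of the rate-limiting enzyme of glutathione synthesis, GCLC (median 1.09) and GCLM (1.08), were higher and DE in 15 of 15. So was the thioredoxin reductase TXNRD1 (0.93), while GSS, which completes glutathione, was lower in 10 (-0.36). CHAC1 was higher in 12 and lower in 2 (1.16), and SLC3A2 was higher in 10 and lower in 2 (0.83). Genes of heme synthesis mostly fell after its first step. ALAS1, the rate-limiting first enzyme, was higher in 14 (0.80), whereas UROD was lower in 14 (-0.71) and FECH, which inserts the iron, in 12 (-0.58), and HMOX1, which breaks heme down and frees iron, was higher in 13, by up to 5.13. Of the regulators, NFE2L2, the master activator of antioxidant genes, was higher in 12 (0.39), KEAP1, its repressor, lower in 12 (-0.56), and BACH1, a heme-sensing repressor of ferritin and HMOX1, higher in 12 and lower in 1 (1.06). The ubiquinone and pterin genes were split, with GCH1 higher in 15 (0.90) and DHODH lower in 14 (-0.87), and the cytosolic iron chaperones PCBP1 and PCBP2 were lower in 10 (-0.30) and 13 (-0.30). Genes in this paragraph other than SLC7A11 were chosen after their values were seen.

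**Figure D5:**
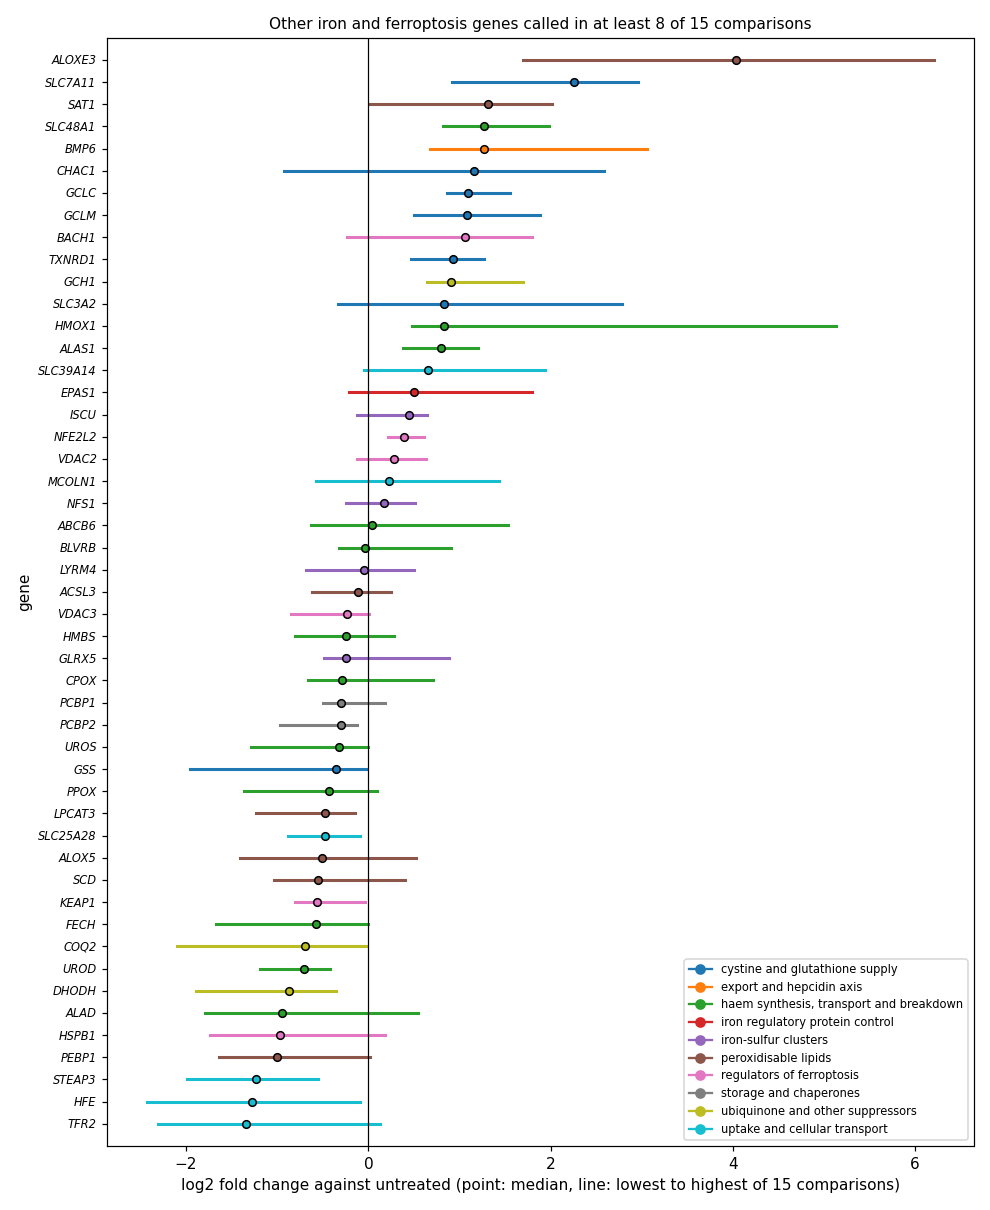
Log2 fold changes against untreated cells of listed genes DE in at least 8 of 15 comparisons, with a point at each gene's median, a line from its lowest to its highest value over the 15 comparisons, and colour for its role. SLC7A11, SLC48A1 and ALOXE3 lie above 0 and STEAP3 and HFE below 0 over their whole range.

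The gene whose level ran most like that of each member was found by Pearson's r over the 18 group means, each centred on its set, among 9771 genes. For FTL it was SLC48A1 (r = 0.920), itself on the list of iron genes, for FTH1 ATP6V1E1 (0.970), a subunit of the vacuolar proton pump, for SLC40A1 CRYBG1 (0.963) and for TFRC MEF2A (0.977). It was GTF3C4 for NCOA4 (0.950), TPD52 for SLC11A2 (0.954), PUS7 for ACSL4 (0.883), DCAF15 for GPX4 (0.858), COPS2 for IREB2 (0.838) and LIPG for ACO1 (0.831). Each is the highest of 9771 values over 18 points that share libraries, and is a description. Among the members themselves FTH1 and FTL had r = 0.666 and FTH1 and SLC40A1 had r = -0.795 over the same 18 means.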

How the data were processed

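The authors deposited raw counts, the number of reads on each of 27978 genes, without normalization. RNA was poly(A)-selected and sequenced in strand-specific pairs of 150 bp. The submitters' processing notes name FastQC 0.11.4, Trim Galore 0.3.7, STAR 2.5.3a, Subread 1.5.2 with featureCounts, edgeR 3.22.3 and hg19; the annotation and strand setting used for counting are not given in the sources used here. Counts were analysed here in R 4.3.3 with edgeR 4.0.16 (filterByExpr, TMM, glmQLFit and glmQLFTest), with 1 model per set of 6 groups and 18 libraries; a further model of CKI and untreated cells at 48 h held the batch as a term, and differences of CKI effects were interaction terms. CPM used TMM-scaled library sizes. DESeq2 1.42.0 served as a check. On simulated counts with 200 genes changed 2-fold, 59.1% were recovered at 24 h (14989 genes), 85% at 48 h in batch 1 (15140) and 87.2% in batch 2 (14844). False calls made up 6.4%, 6.29% and 4.47% of the calls. Far larger shares of genes were DE in the real libraries, so these rates describe the simulated setting alone. Named genes were the 10 members, the 4 genes with the largest median rise and fall of the list among those DE in at least 8 of 15 comparisons, and the most similar gene per member; 1 gene that this rule selects is not reported here. The members and lists were chosen with earlier results of these data known. Each alternative was fitted across all genes.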

Additional observations from a re-analysis of the deposited data

Results flagged for a closer look

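The effect of CKI at 48 h differed between the batches, by the test of the difference itself, for SLC40A1 (1.13 ± 0.19 on the log2 scale, batch 2 minus batch 1, adjusted p = 0.000399), SLC11A2 (-0.42 ± 0.11, adjusted p = 0.0136) and TFRC (-0.39 ± 0.11, adjusted p = 0.0245) in edgeR's test. For SLC40A1 the effect was 0.20 in batch 1 and 1.31 in batch 2, for SLC11A2 0.33 and -0.11, and for TFRC 0.53 and 0.14. Untreated cells stood at 5.60 ± 1.57 CPM of SLC40A1 in batch 2 and 9.04 ± 0.463 CPM (SD, n = 3) in batch 1. N-OmtOspc lowered SLC11A2 at 24 h (-0.69) and raised it at 48 h (0.32), with all 3 libraries on one side of untreated cells at each time; this difference was not tested.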

How the results depend on the processing

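Refits comprised fits of all 54 libraries together or of the 2 groups compared alone, other scalings, other filters, DESeq2, the replicate block, the omission of the 3 libraries that lean toward batch 2, and 90 omissions of single libraries. FTL against untreated cells kept its call in all 15 comparisons under every one, as did SLC40A1 for N-OmtOspc and N-MacOmtOspc at both times, for OO and MOO at 48 h, and for CKI and N-Omt in batch 2. Of the counts of members DE, 454 stayed within 1.5 times and 48 did not. Of the single log2 values 4721 kept direction and call, 138 gained and 159 lost the call, and 2 reversed: TFRC with N-MacOmtOspc at 24 h was -0.41 without the 3 libraries and -0.41 without N-MacOmtOspc replicate 2 alone, and ran from there to 0.22 over the other single omissions. For no change below was the cause tested.

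With all 54 libraries in 1 model, the members DE were 5 for N-MacOmtOspc and 6 for OO against untreated cells at 24 h, 5 for N-MacOmtOspc, 5 for OO and 3 for MOO against CKI at 24 h, 5 for N-MacOmtOspc against untreated cells and 3 for OO against CKI at 48 h, and, in batch 2, 3 for CKI against untreated cells and 4 for N-Mac against CKI. With only the groups compared they were 5 for MOO and 2 for OO against untreated cells and 0 for OO against CKI at 24 h, 5 for MOO against CKI and 1 for MOO against OO at 48 h, and 2 and 4 for N-MacOmtOspc against N-OmtOspc at 24 and 48 h. Scaling by library size alone gave 1 for MOO against untreated cells, 0 for OO against CKI and 7 for N-MacOmtOspc against N-OmtOspc at 24 h, and 5 for N-MacOmtOspc against CKI at 48 h. That scaling shifted the median gene by -0.31 for N-OmtOspc at 24 h and by 0.11 for OO at 48 h. With no filter beyond 1 count, MOO had 1 against untreated cells and OO 0 against CKI at 24 h. DESeq2 gave 2 for OO against untreated cells at 24 h. Without the 3 libraries, N-MacOmtOspc had 4 against CKI and 5 against untreated cells, and OO 3 against untreated cells.

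Leaving out single libraries gave 1 to 2 members DE for CKI, 1 for MOO, 3 to 5 for N-MacOmtOspc and 1 to 3 for OO against untreated cells at 24 h, 0 to 1 for MOO, 2 to 4 for N-MacOmtOspc and 0 to 1 for OO against CKI at 24 h, 2 to 4 for N-MacOmtOspc against N-OmtOspc at 24 h, 3 to 4 for OO against CKI at 48 h, and 1 to 4 for the batch difference of the CKI effect. Replicate numbers did not pair the samples: in 1 of 15 group pairs at 24 h, and in 0 at 48 h in either batch, did all same-numbered libraries deviate together with a correlation over 0.1. A replicate block gave 1 member DE for MOO against untreated cells and 0 for OO against CKI at 24 h and moved no other count by over 1.5 times. SLC40A1, with as few as 24 counts in a library, is the member whose depth limits precision most.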
